A study of Homo sapiens with 44 samples.

Results

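UGT2B enzymes transfer glucuronic acid from UDP-glucuronic acid to lipophilic molecules, steroids among them, in the membrane of the endoplasmic reticulum. The conjugates are water-soluble and leave the cell through transporters, so the reaction ends the action of a hormone. In the human prostate, UGT2B15 and UGT2B17 conjugate dihydrotestosterone and its reduced metabolites, and UGT2B17 also conjugates testosterone. In LNCaP, another prostate cancer line, androgen is known to lower the transcripts of both enzymes. The transcripts described here are those of 7 members, UGT2B4, UGT2B7, UGT2B10, UGT2B11, UGT2B15, UGT2B17 and UGT2B28, taken by name among 23368 genes in the deposited counts. With a minimum of 0.5 CPM, the count of a gene as parts of a fixed library total, on average over the tumors, 5 members were kept for description in full. UGT2B11 (0.268 CPM) and UGT2B28 (0.101 CPM) were under it and are given by their counts, and the lowest member above it was UGT2B17 (1.16 CPM).

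The tumors were xenografts of VCaP, 1 human prostate cancer cell line with the TMPRSS2-ERG fusion, grown in athymic nude mice, which lack T cells. Enzalutamide or ARN-509, a pair of antiandrogens, was administered orally, by gavage, for 4 weeks at a daily dose of 20 mg/kg, and the vehicle arm was gavaged without drug. All mice, those of the vehicle arm included, had been castrated, and treatment began once serum PSA had come back to its level before castration, so every arm held castration-resistant tumors. Libraries came from 14 enzalutamide, 15 ARN-509 and 15 vehicle tumors, which equals the number of mice treated, and each was taken as 1 tumor of 1 mouse.

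Enzalutamide 4 held 80142 counts and none of any of the 7 members, which allows up to 37.4 CPM, and it was left out, leaving 13 enzalutamide tumors and 43 in all. Depth ran from 4.72 to 16.9 M counts in enzalutamide libraries (median 8.62), from 3.38 to 30.1 M in ARN-509 libraries (median 7.49) and from 4.19 to 25.8 M in vehicle libraries (median 5.71). All 12 genes that mark prostate luminal and VCaP tumor cells had a median of at least 1 CPM in each arm. In a tumor's bulk RNA, fewer cells with a transcript and less transcript per cell cannot be told apart.

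The members fall into 2 groups by sequence, and the groups matter for the counts, since reads from near copies can be assigned to either. UGT2B15 and UGT2B17 were identical at 96.5% of aligned coding positions, while each differed more from the other 5 members (84.0 to 85.4% identity). Those other 5, UGT2B4, UGT2B7, UGT2B10, UGT2B11 and UGT2B28, were 89.1 to 97.0% identical among themselves, with UGT2B11 and UGT2B28 the closest pair. The first 60 coding bases show how little separates them; capitals mark bases that differ from the aligned base of UGT2B15, and the transcripts are those of GENCODE 29.
UGT2B15: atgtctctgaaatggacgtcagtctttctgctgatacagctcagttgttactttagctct
UGT2B17: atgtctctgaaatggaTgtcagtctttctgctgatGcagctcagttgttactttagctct
UGT2B4: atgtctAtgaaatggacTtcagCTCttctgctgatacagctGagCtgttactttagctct
UGT2B7: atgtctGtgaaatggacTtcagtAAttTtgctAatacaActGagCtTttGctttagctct
UGT2B10: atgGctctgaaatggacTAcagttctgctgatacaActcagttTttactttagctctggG
UGT2B11: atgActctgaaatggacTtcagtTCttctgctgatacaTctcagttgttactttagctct
UGT2B28: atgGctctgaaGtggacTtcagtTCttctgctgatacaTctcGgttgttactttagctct
In this stretch UGT2B17 differed from UGT2B15 at 2 bases and UGT2B7 at 11. UGT2B10 lacks a codon here, so its line runs further into the gene.

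**Figure D1:**
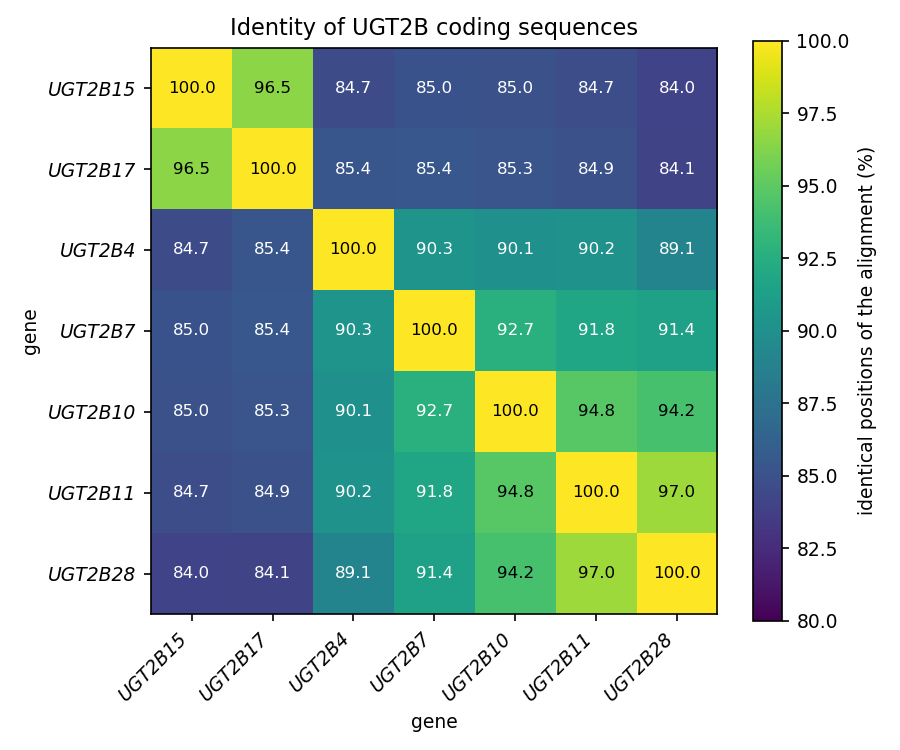
Percent identity of the aligned coding sequences of each pair of the 7 members, with both axes listing the genes and color giving the identity. UGT2B15 and UGT2B17 form a pair at 96.5%, and every pair across to the other 5 members lies between 84.0 and 85.4%.

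The share of a transcript that also stands in other genes was measured in windows of 50 bases. That length was chosen here and not taken from the reads, and longer or paired reads could place more of these windows. For UGT2B15, 27.8% of windows also stood in another gene's transcript, nearly all of them in UGT2B17, and for UGT2B17 the share was likewise 27.8%. UGT2B10, UGT2B11 and UGT2B28 shared 31.7%, 40.9% and 35.7% of their windows, with each other and with pseudogenes such as UGT2B24P, UGT2B25P and UGT2B27P. UGT2B4 (3.16%) and UGT2B7 (6.75%) had few such windows, so their counts are the least exposed to reads of a copy. How reads with several placements were counted is not given in the sources used here.

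All 7 genes lie on chromosome 4. In the order of the RefSeq annotation they run UGT2B17, UGT2B15, UGT2B10, UGT2A3, UGT2B7, UGT2B11, UGT2B28, UGT2B4, with UGT2A3 the only protein-coding gene of another name among them. The RefSeq promoter table (GRCh38.p14) held UGT2B7, UGT2B10, UGT2B11 and UGT2B15. The 250 bases before the start are printed for 2 genes that were lower under both drugs, UGT2B7 (chr4:69096224-69096473, plus strand) and UGT2B10 (chr4:68815744-68815993, plus strand), and for UGT2B15 (chr4:68670653-68670902, minus strand), whose differences did not pass the test. Each is written 5′ to 3′ on the gene's own strand, and capitals mark the motif matches described after them.
UGT2B7: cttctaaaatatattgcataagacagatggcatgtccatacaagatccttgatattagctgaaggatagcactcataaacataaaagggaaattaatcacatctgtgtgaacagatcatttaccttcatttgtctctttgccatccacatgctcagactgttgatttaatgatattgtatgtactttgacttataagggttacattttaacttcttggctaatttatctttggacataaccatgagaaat
UGT2B10: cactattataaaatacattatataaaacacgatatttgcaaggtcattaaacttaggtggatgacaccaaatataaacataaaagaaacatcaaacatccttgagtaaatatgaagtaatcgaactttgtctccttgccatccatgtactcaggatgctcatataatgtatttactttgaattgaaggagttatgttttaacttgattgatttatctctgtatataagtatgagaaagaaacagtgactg
UGT2B15: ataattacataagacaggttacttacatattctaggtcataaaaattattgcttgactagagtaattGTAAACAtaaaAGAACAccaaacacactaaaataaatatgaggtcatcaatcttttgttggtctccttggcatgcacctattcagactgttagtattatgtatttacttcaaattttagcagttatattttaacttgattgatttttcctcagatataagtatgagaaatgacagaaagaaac
The promoters of UGT2B10 and UGT2B11 were 90.2% identical, UGT2B10 and UGT2B15 67.8%, UGT2B11 and UGT2B15 70.0%, and UGT2B7 shared 57.9 to 63.0% with the others. Motifs were searched on both strands in these 4 windows and in 35116 promoters of the same length. UGT2B15 held the FOXA motif TGTTTAC 183 bases before the start and the androgen response element half-site TGTTCT 172 bases before it, both on the opposite strand, and these letters stood in 2.98% and 12.4% of all promoters. Neither was found in the UGT2B7, UGT2B10 or UGT2B11 window. The FOXA variant TGTTTGC (3.23% of promoters), the full androgen response element (0.0028%) and the octamer ATGCAAAT (1.63%) were found in none of the 4. The full androgen response element overlaps its own half-site.

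UGT2B4, UGT2B10 and UGT2B7 were lower in tumors of both drugs. UGT2B15 and UGT2B17 did not pass the test in either comparison, and their fold changes were near or above 0. Among the 4 members that the count filter of edgeR (filterByExpr) kept, 2 passed at an adjusted p under 0.05 for enzalutamide against vehicle, both lower, where 10.8% of 13520 genes passed and 5.67% were lower. For ARN-509 against vehicle the same 2 members passed, both lower, where 30.8% of genes passed and 16.1% were lower. UGT2B7 was under that filter and was tested in a fit of the 14650 genes with a mean of at least 0.5 CPM, in which 10.1% of genes passed for enzalutamide (5.3% lower) and 28.9% for ARN-509 (15.1% lower). In that fit 3 of 5 members passed for each drug, all lower. Both comparisons use the same 15 vehicle tumors.

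**Figure D2:**
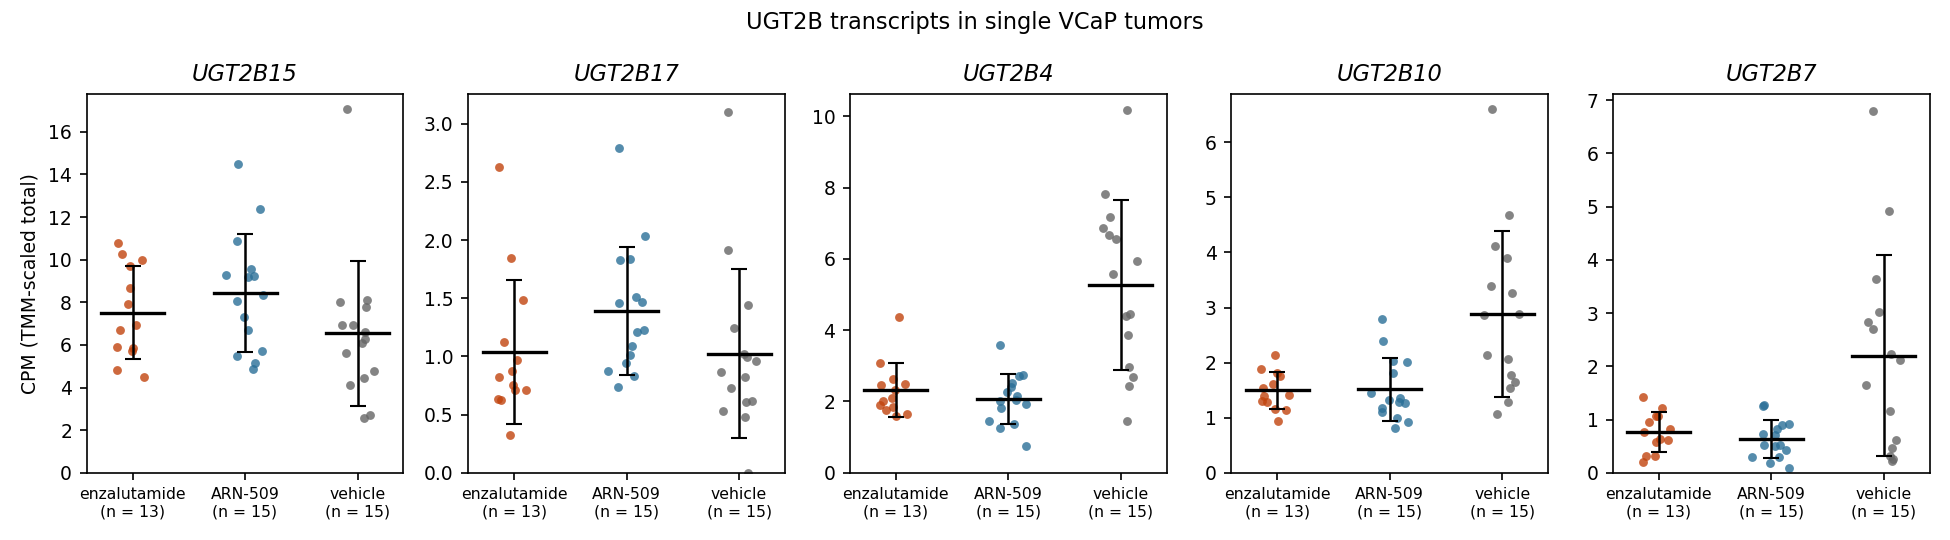
CPM of the 5 members kept, 1 point per tumor, for enzalutamide (n = 13), ARN-509 (n = 15) and vehicle (n = 15); bars give the mean and whiskers the SD. For UGT2B4, UGT2B10 and UGT2B7 the points of both drugs sit under the middle of the vehicle points, while the arms overlap throughout for UGT2B15 and UGT2B17.

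UGT2B15 was the most abundant member in every arm. It ranged from 4.49 to 10.8 CPM in enzalutamide tumors (median 6.92), from 4.86 to 14.5 CPM in ARN-509 tumors (median 8.32) and from 2.57 to 17.1 CPM in vehicle tumors (median 6.30). The arms overlapped across nearly their whole ranges, with vehicle 14 lowest and vehicle 12 highest of all tumors. The mean was 7.51 ± 2.18 CPM under enzalutamide (SD, n = 13) against 6.54 ± 3.40 CPM in vehicle (n = 15), a log2 fold change of 0.20 ± 0.19 (SE, 95% interval -0.18 to 0.59, edgeR quasi-likelihood test, adjusted p = 0.568). ARN-509 tumors averaged 8.44 ± 2.75 CPM (n = 15), a log2 fold change of 0.35 ± 0.19 over vehicle (interval -0.02 to 0.72, adjusted p = 0.144). Vehicle 12 decided this call, since without it UGT2B15 was higher under ARN-509 by 0.51 on the log2 scale and passed the test (adjusted p = 0.0201). limma voom with quality weights also called it, at 0.44 (adjusted p = 0.0428).

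UGT2B17, the near copy that also conjugates testosterone, was much less abundant. It ranged from 0.323 to 2.62 CPM in enzalutamide tumors (median 0.826), from 0.733 to 2.79 CPM in ARN-509 tumors (median 1.23) and from 0 to 3.10 CPM in vehicle tumors (median 0.869). The ranges overlapped, although 13 of 15 ARN-509 tumors stood above the vehicle median and 6 of 13 enzalutamide tumors did. Vehicle 11 had 0 UGT2B17 counts beside 35 of UGT2B15, which allows up to 0.665 CPM. The log2 fold change was 0.00 ± 0.28 under enzalutamide (interval -0.55 to 0.56, adjusted p = 0.995) and 0.40 ± 0.26 under ARN-509 (interval -0.12 to 0.92, adjusted p = 0.233). limma voom with quality weights called UGT2B17 for ARN-509 (0.67, adjusted p = 0.0209). Of all UGT2B15 and UGT2B17 counts in a tumor, UGT2B17 took 11.7 ± 3.9% in enzalutamide tumors, 14.3 ± 3.7% in ARN-509 tumors and 13.7 ± 5.7% in vehicle tumors (SD). Summed over each arm it took 136 of 1115 counts under enzalutamide (12.2%, exact 95% interval 10.3 to 14.3%), 224 of 1534 under ARN-509 (14.6%, 12.9 to 16.5%) and 125 of 905 in vehicle (13.8%, 11.6 to 16.2%). These intervals cover counting error only, and they overlap between the arms.

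UGT2B4, an enzyme of bile acid conjugation that is chiefly known from liver, had the smallest adjusted p of the members in both comparisons. It ranged from 1.58 to 4.37 CPM in enzalutamide tumors (median 2.10), from 0.740 to 3.58 CPM in ARN-509 tumors (median 2.05) and from 1.45 to 10.2 CPM in vehicle tumors (median 5.57). All 13 enzalutamide and all 15 ARN-509 tumors were below the vehicle median, and 10 of 15 vehicle tumors exceeded the highest enzalutamide tumor, 11 the highest ARN-509 tumor. The lower vehicle tumors overlapped with the drug arms, and vehicle 14 (1.45 CPM) was below every enzalutamide tumor. Enzalutamide tumors averaged 2.32 ± 0.75 CPM against 5.27 ± 2.37 CPM in vehicle, a log2 fold change of -1.16 ± 0.20 (interval -1.57 to -0.75, adjusted p = 5.65e-05), which is 2.24-fold lower. ARN-509 tumors averaged 2.07 ± 0.70 CPM, a log2 fold change of -1.34 ± 0.20 (interval -1.74 to -0.94, adjusted p = 1.75e-06), 2.54-fold lower. Few of its windows are shared with a copy.

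UGT2B10, which adds glucuronic acid to the nitrogen of nicotine, fell under both drugs. It ranged from 0.948 to 2.14 CPM in enzalutamide tumors (median 1.42), from 0.820 to 2.79 CPM in ARN-509 tumors (median 1.32) and from 1.06 to 6.60 CPM in vehicle tumors (median 2.87). Again all tumors of both drugs stood below the vehicle median, while 8 of 15 vehicle tumors exceeded the highest tumor of either drug and the others overlapped with them. The means were 1.49 ± 0.34 CPM under enzalutamide and 2.88 ± 1.50 CPM in vehicle, a log2 fold change of -0.91 ± 0.21 (interval -1.33 to -0.50, adjusted p = 0.00183). For ARN-509 the mean was 1.51 ± 0.57 CPM and the log2 fold change -0.87 ± 0.20 (interval -1.27 to -0.47, adjusted p = 0.00112). These are 1.88-fold and 1.82-fold lower than vehicle. Since UGT2B10 shares windows with UGT2B11, UGT2B28 and pseudogenes, some of its counts could be theirs. The sum of UGT2B10, UGT2B11 and UGT2B28 averaged 1.69 CPM under enzalutamide, 1.72 CPM under ARN-509 and 3.57 CPM in vehicle.

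UGT2B7, which conjugates estrogens, opioids and many other drugs, varied most among tumors. It ranged from 0.210 to 1.42 CPM in enzalutamide tumors (median 0.772), from 0.0876 to 1.27 CPM in ARN-509 tumors (median 0.531) and from 0.222 to 6.79 CPM in vehicle tumors (median 2.11). Every tumor of both drugs was below the vehicle median, 9 of 15 vehicle tumors exceeded the highest tumor of either drug, and the lower vehicle tumors lay within the ranges of both drugs. In vehicle, 5 tumors lay between 0.222 and 0.621 CPM and the other 10 between 1.17 and 6.79 CPM. Counts behind these levels were small, with medians of 8 reads in enzalutamide, 4 in ARN-509 and 15 in vehicle libraries. The log2 fold change was -1.35 ± 0.36 under enzalutamide (interval -2.08 to -0.62, adjusted p = 0.0103) and -1.69 ± 0.36 under ARN-509 (interval -2.42 to -0.96, adjusted p = 0.000558), 2.55-fold and 3.23-fold lower. UGT2B7 is thus the member with the largest fold change among the 5 kept, and the one with the widest intervals.

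**Figure D3:**
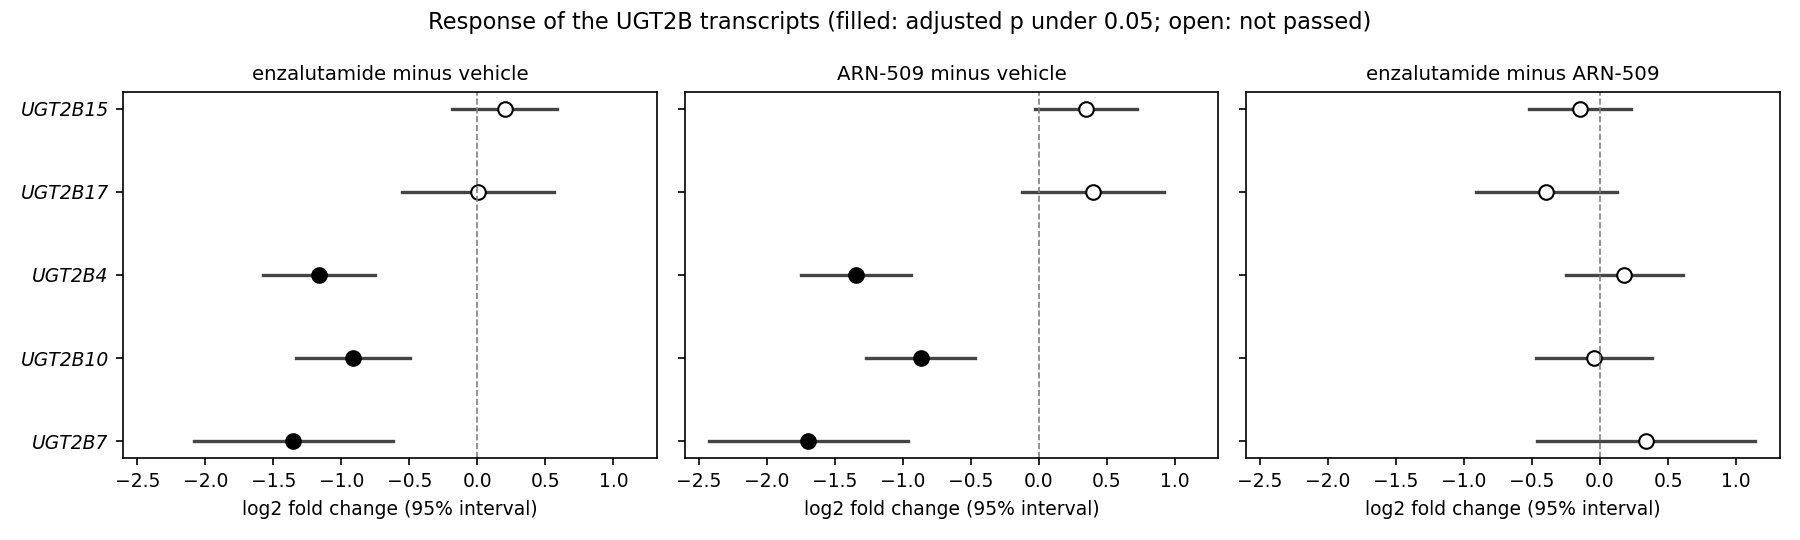
Log2 fold changes of the 5 members with 95% intervals for enzalutamide over vehicle, ARN-509 over vehicle and enzalutamide over ARN-509; filled points passed an adjusted p under 0.05 and open points did not. UGT2B4, UGT2B10 and UGT2B7 lie left of 0 for both drugs, and every interval between the drugs spans 0; UGT2B7 is from the fit with the mean CPM minimum.

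UGT2B11 and UGT2B28 were near the limit of these libraries. UGT2B11 had 99 counts over 43 tumors and was at 0 in 11 of them, with means of 0.133 CPM under enzalutamide, 0.159 CPM under ARN-509 and 0.506 CPM in vehicle. UGT2B28, which is known to conjugate androgens as well, had 37 counts and was at 0 in 22 tumors, with means of 0.0668, 0.0479 and 0.188 CPM in enzalutamide, ARN-509 and vehicle tumors. A count of 0 allows between 0.0967 and 0.872 CPM in these libraries, so a count of 0 does not show that the transcript was absent from a tumor. In a fit of all 20569 genes with any count, UGT2B11 was lower under enzalutamide (log2 -1.95 ± 0.50, adjusted p = 0.00862) and under ARN-509 (-1.45 ± 0.45, adjusted p = 0.0177), where 6.72% and 19.2% of genes passed (3.49% and 10.1% lower). UGT2B28 did not pass there (adjusted p = 0.226 and 0.0951 for enzalutamide and ARN-509).

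Because UGT2B4, UGT2B7 and UGT2B10 are best known from liver, hepatocyte genes were read beside them. The summed level of 20 hepatocyte markers had a median of 24.9 CPM in enzalutamide tumors (19.2 to 640), 25.6 CPM in ARN-509 tumors (21.7 to 29.3) and 26.3 CPM in vehicle tumors (18.8 to 43.5). Single markers went different ways within that sum. SERPINA1 had medians of 2.77, 2.67 and 5.39 CPM in enzalutamide, ARN-509 and vehicle tumors and HPX 4.99, 5.06 and 7.10 CPM, whereas ALB had 8.08, 8.20 and 4.79 CPM. The value of 640 is enzalutamide 2, with 620 CPM of ALB. Of the 20, 6 had a median of at least 1 CPM in each arm, and FGA was at 0 in all tumors. Markers of basal epithelium and endothelium had higher sums in vehicle, where UGT2B4, UGT2B7 and UGT2B10 were higher too. The 4 basal markers summed to a median of 1.06 CPM in enzalutamide tumors (0.202 to 3.00), 0.664 CPM in ARN-509 tumors (0 to 6.83) and 5.86 CPM in vehicle tumors (0.887 to 8.64). In vehicle KRT14 alone had a median of 5.86 CPM, and KRT5, KRT15 and TP63 were at a median of 0 in every arm. The 4 endothelial markers summed to 0.814 CPM (0.202 to 2.52), 0.906 CPM (0.210 to 1.58) and 4.12 CPM (1.33 to 6.43) in enzalutamide, ARN-509 and vehicle tumors. Most of the vehicle sum was VWF, with medians of 0.354, 0.185 and 3.15 CPM in the same arms. PECAM1 had 0.486, 0.612 and 0.969 CPM, and CDH5 and KDR were at a median of 0 in each arm. The summed level of 7 fibroblast markers had medians of 7.32, 8.76 and 10.3 CPM, and that of 5 leukocyte markers 7.19, 5.36 and 6.30 CPM, in enzalutamide, ARN-509 and vehicle tumors. Their part in the lower UGT2B levels was not tested.

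The direct comparison of the drugs, given at the same dose for the same time, asked whether the members respond alike to both; it is 1 pair of compounds. None of the 4 members tested by the count filter differed between enzalutamide and ARN-509 tumors at an adjusted p under 0.05 by edgeR. Over all genes 26.8% did. By edgeR 0 of 4 had an unadjusted p under 0.05. By DESeq2, which gave no adjusted p for UGT2B17, 0 passed, and by limma 0 passed. The smallest p by limma was that of UGT2B17 (log2 -0.50, unadjusted p = 0.0347, adjusted p = 0.0744). The intervals bound what a difference could be. The log2 difference, enzalutamide minus ARN-509, was 0.18 for UGT2B4 (interval -0.25 to 0.61), -0.04 for UGT2B10 (-0.47 to 0.38), -0.15 for UGT2B15 (-0.52 to 0.23) and -0.40 for UGT2B17 (-0.91 to 0.12). UGT2B7, by the fit with the mean CPM minimum, gave 0.34 (-0.46 to 1.14, adjusted p = 0.562), where 24.1% of genes passed.

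The make-up of the family's counts differed between the arms. UGT2B15 and UGT2B17 together took 63.3 ± 8.0% of the counts of all 7 members in enzalutamide tumors (49.0 to 72.5%), 68.3 ± 7.7% in ARN-509 tumors (54.5 to 80%) and 41.1 ± 10.5% in vehicle tumors (25.3 to 59.6%). Every tumor of both drugs was above the vehicle median of 38.6%, and the ranges overlapped at their edges. The share is a score over members whose responses are described already, so it has no test of its own. In summed CPM, UGT2B15 and UGT2B17 averaged 8.55 under enzalutamide, 9.83 under ARN-509 and 7.56 in vehicle. The other 5 members averaged 4.78, 4.42 and 11.04 CPM in enzalutamide, ARN-509 and vehicle tumors, and all 7 together 13.3 ± 2.9, 14.2 ± 3.7 and 18.6 ± 7.8 CPM.

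**Figure D4:**
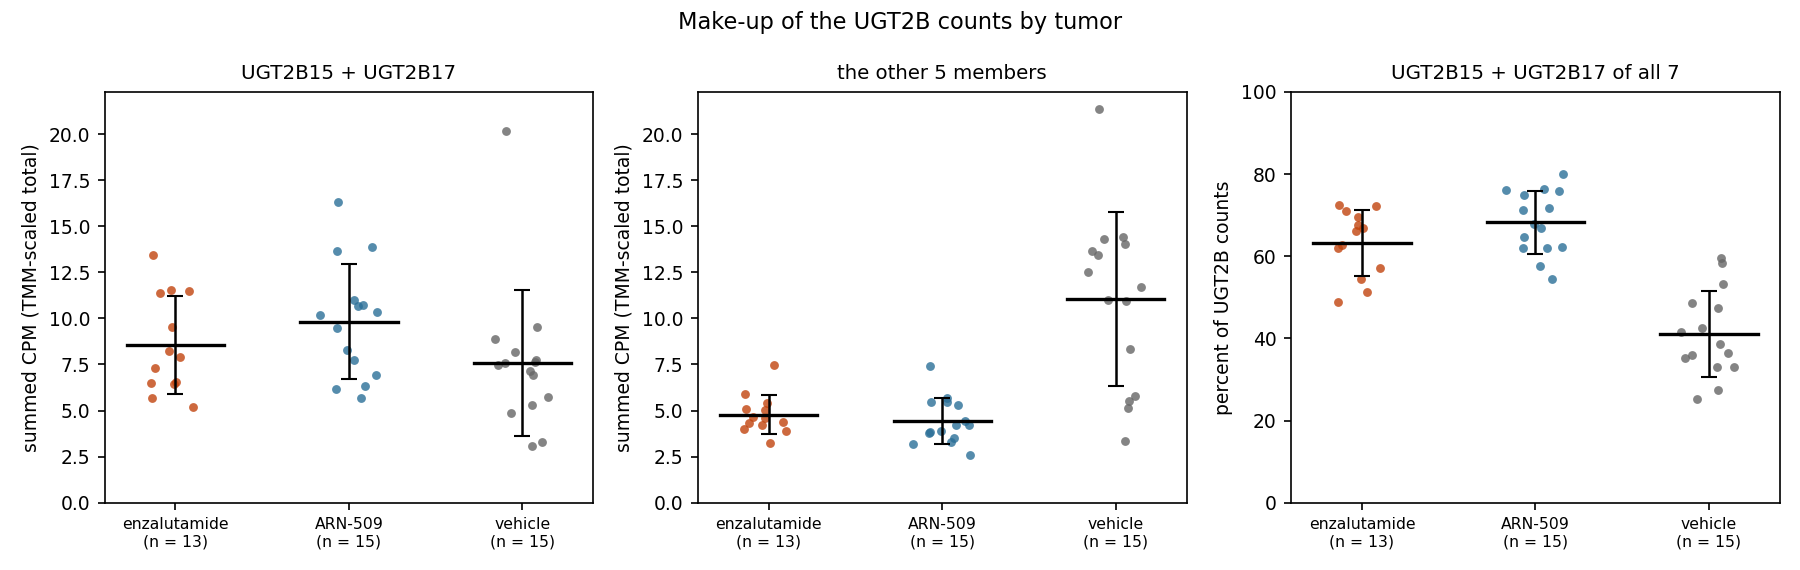
Left and middle, summed CPM of UGT2B15 with UGT2B17 and of the other 5 members; right, the percent of all UGT2B counts that UGT2B15 and UGT2B17 took; 1 point per tumor, bars for the mean and whiskers for the SD. The sum of the pair overlaps between arms, the other 5 sum to 4.78 and 4.42 CPM under enzalutamide and ARN-509 against 11.04 CPM in vehicle, and the percent is 63.3 and 68.3 against 41.1.

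Per kilobase of transcript, a scale that allows for the length of the members only, UGT2B15 led in each arm. The share of windows that also stand in other genes differs between members. It is 3.16% for UGT2B4, 6.75% for UGT2B7, 27.8% for UGT2B15 and UGT2B17 and 31.7% for UGT2B10. Since the counting of reads with several placements is not given, the order of members below carries that limit. Its median level was 3.33 CPM per kb in enzalutamide tumors, 4.01 in ARN-509 tumors and 3.03 in vehicle tumors, and that of UGT2B4 was 0.999, 0.975 and 2.65 CPM per kb in the same arms. UGT2B15 exceeded UGT2B4 in 13 of 13 enzalutamide and 15 of 15 ARN-509 tumors, but in 10 of 15 vehicle tumors, so in vehicle the top 2 were not separated beyond their spread. By median UGT2B10 took the third place in every arm. It exceeded the next member in 12 of 13 enzalutamide, 10 of 15 ARN-509 and 11 of 15 vehicle tumors. In vehicle tumors UGT2B7 (1.12 CPM per kb) stood above UGT2B17 (0.418) in 12 of 15 tumors, whereas in ARN-509 tumors UGT2B17 (0.591) stood above UGT2B7 (0.281) in 14 of 15. In enzalutamide tumors UGT2B17 and UGT2B7 had medians of 0.398 and 0.409 CPM per kb and were not separated.

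Members varied between tumors of an arm more than most genes of like level. The biological coefficient of variation was 0.605 for UGT2B7, above that of 96.7% of genes at a similar level, 0.323 for UGT2B15 (89.2%), 0.330 for UGT2B4 (81.9%), 0.354 for UGT2B17 (78.9%) and 0.298 for UGT2B10 (71.1%). Vehicle 12 had the highest UGT2B7, UGT2B10, UGT2B15 and UGT2B17 of all tumors. Correlation of the members with the log2 library total, with arm means subtracted, ran from r = -0.12 to 0.19 across 43 tumors.

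Relations were computed for 30 pairs, of members with each other and with 4 other genes, FOXA1, KLK3 and FKBP5 among them, on log2 CPM with arm means subtracted. UGT2B15 and UGT2B17 had r = 0.47 and rho = 0.55 over 43 tumors (permutation p = 0.00541 and 0.00019; adjusted 0.0541 and 0.0057), and r was 0.62, 0.61 and 0.36 within enzalutamide, ARN-509 and vehicle. Without the 2 tumors farthest from the median r was 0.33 (adjusted p = 0.11), so the relation rests in part on vehicle 12 and vehicle 14. The genes also have windows of sequence in common, and whether reads of 1 were counted for the other was not tested. UGT2B4 and FKBP5, an androgen-induced co-chaperone of steroid receptors, had r = 0.41 and rho = 0.53 (permutation p = 0.00855 and 0.00046; adjusted 0.0641 and 0.0069), with r of 0.71, 0.60 and 0.22 within the arms and 0.42 without the 2 farthest tumors. By Pearson's r 0 of the 10 member pairs passed.

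The genes whose levels ran most like each member's, among 12792 compared over 43 tumors with arm means subtracted, are a description only. For UGT2B7 they were ASRGL1 (r = 0.83), the mitotic kinesin KIF2C (0.82) and the importin KPNA2 (0.81), a closer likeness than for any other member. For UGT2B15 they were PARP9 (0.70), LRRC31 (0.64) and the interferon-induced GTPase MX1 (0.63). UGT2B4 was most like the sulfate transporter SLC26A2 (0.65), FZD5 (0.58), a Wnt receptor, and ARHGAP18 (0.57), and SLC26A2 and FZD5 were lower under both drugs themselves (enzalutamide log2 -1.01 and -0.94, ARN-509 -0.62 and -0.74). UGT2B10 was most like ANXA2 (0.62), ABLIM3 (0.61) and NEFH (0.61), and UGT2B17 like HGD (0.65), SLC25A18 (0.62) and ABLIM3 (0.62). ASRGL1, the gene most like UGT2B7, was lower under both drugs too (enzalutamide log2 -0.91, ARN-509 -1.08). Apart from ASRGL1, SLC26A2 and FZD5, none of these genes passed the test for both drugs.

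Neighbours on chromosome 4 gave little to compare with. UGT2A3, which lies among the members, had 13 counts over 43 tumors, UGT2A1 1, and UGT2A2, SULT1B1 and SULT1E1 none. Of the non-member genes looked at on either side, only YTHDC1, an RNA-binding protein gene beyond UGT2B17, was abundant enough to test, and its log2 fold change was -0.09 under enzalutamide (adjusted p = 0.447) and 0.20 under ARN-509 (adjusted p = 0.0199, and 0.468 with the trend in GC content and length removed). UGT2B17 and UGT2B15, which did not pass the test, stand side by side at the YTHDC1 end of the cluster, and UGT2B10, UGT2B7 and UGT2B4, which fell, follow after them.

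Of 15 other UGT genes only UGT8, which makes galactosylceramide, was tested, and it fell by 0.50 ± 0.13 under enzalutamide (adjusted p = 0.00682); its value under ARN-509 was -0.25 (adjusted p = 0.11). A list of 10 genes around UDP-glucuronic acid runs from hexokinases to GUSB, and not all of them make or remove it. Of these 10 genes, 1 rose and 0 fell under enzalutamide, and 1 rose and 3 fell under ARN-509. Their median log2 was -0.07 and -0.09, against -0.0040 and -0.0011 over all genes, of which 10.8% and 30.8% passed. UGDH, the enzyme that makes UDP-glucuronic acid, rose by 0.42 ± 0.08 under enzalutamide (adjusted p = 0.000114) and 0.35 ± 0.07 under ARN-509 (adjusted p = 0.000526), with 249 ± 26 CPM under enzalutamide, 236 ± 32 CPM under ARN-509 and 186 ± 33 CPM in vehicle. HK1, a hexokinase, SLC35B1 and GUSB, which cleaves glucuronides, were those that fell under ARN-509 (-0.31, -0.32 and -0.21).

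Of 11 tested genes of androgen inactivation and interconversion, 2 rose and 1 fell under enzalutamide and 2 rose and 3 fell under ARN-509 (median log2 0.10 and 0.12). The shares of all genes that passed were 10.8% for enzalutamide and 30.8% for ARN-509. HSD17B6, which oxidises androstanediol back to dihydrotestosterone, fell by 0.76 ± 0.11 under enzalutamide (adjusted p = 1.33e-06) and by 0.76 ± 0.10 under ARN-509 (adjusted p = 3.84e-07). HSD17B4, a peroxisomal enzyme that can oxidise estradiol, rose by 0.31 and 0.19 under the 2 drugs, and SRD5A3 rose by 0.30 under enzalutamide. With the trend in GC content and length removed, HSD17B4 lost its call under ARN-509 (adjusted p = 0.0953).

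Of 4 tested genes of steroid sulfation, 0 rose and 1 fell under enzalutamide and 1 rose and 1 fell under ARN-509 (median log2 -0.16 for both). Beside them, 10.8% of all genes passed for enzalutamide and 30.8% for ARN-509. PAPSS2, which makes the sulfate donor, fell by 0.64 ± 0.19 under enzalutamide (adjusted p = 0.0234, and 0.0634 without vehicle 12) and by 0.62 ± 0.19 under ARN-509 (adjusted p = 0.0105). PAPSS1, which makes the same donor, rose by 0.17 under ARN-509 (adjusted p = 0.0352). That call was lost when any 1 of 11 libraries was left out (ARN-509 2, 7, 9, 10 or 12, or vehicle 1, 7, 8, 9, 12 or 15), with adjusted p of 0.0512 without vehicle 1 and up to 0.0899 without vehicle 8. Of 4 tested transporters that export conjugates, 2 rose and 2 fell under enzalutamide and 2 rose and 1 fell under ARN-509. The median log2 of these transporters was 0.06 and 0.21, and the all-gene shares are again 10.8% and 30.8%. Among them ABCC3 rose by 0.85 ± 0.21 and 0.84 ± 0.21 and ABCC5 by 0.45 and 0.59 under enzalutamide and ARN-509, whereas ABCC1 fell by 0.38 and 0.34, and ABCC4 fell by 0.33 under enzalutamide (adjusted p = 0.0232, and 0.0521 without vehicle 5).

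Of 10 tested transcription factors reported to act on UGT2B genes, 1 fell under enzalutamide and 2 fell under ARN-509. The others did not pass the test (median log2 -0.02 and 0.05). Among all genes 10.8% passed for enzalutamide (5.67% lower) and 30.8% for ARN-509 (16.1% lower). NFE2L2, a regulator of antioxidant genes, fell by 0.57 ± 0.09 under enzalutamide and 0.41 ± 0.08 under ARN-509. VDR, the vitamin D receptor, fell by 0.74 ± 0.18 under ARN-509 (adjusted p = 0.00169). FOXA1 (-0.01 and 0.06), a pioneer factor of prostate and liver, did not pass the test in either comparison. Among genes known to be induced by androgen, STEAP4 fell (log2 -4.23 ± 0.44 under enzalutamide and -3.74 ± 0.40 under ARN-509) and FKBP5 fell by 0.44 and 0.59. KLK3 fell by 0.61 under ARN-509 (adjusted p = 0.0243, and log2 -0.38 with adjusted p = 0.104 without vehicle 8). That call was also lost by limma voom (adjusted p = 0.0625) and with the trend in GC content and length removed (adjusted p = 0.0624). Under enzalutamide KLK3 did not pass (-0.17, adjusted p = 0.697). TMPRSS2 did not pass (0.24 and 0.03), but limma voom called it higher under enzalutamide (0.45, adjusted p = 0.0256).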

How the data were processed

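Per the labels, libraries were made from total RNA of VCaP xenograft tumors by the TruSeq RNA v2 protocol of Illumina, which leaves strand unmarked. The authors deposited raw counts, whole numbers per gene symbol, with 44 columns that were matched to tumors through the labels. Tools named in the submitters' processing notes are HTSeq 0.6.1, TopHat2 2.1.0, Picard 1.77 and bcl2fastq 1.8.4, with the hg19 build; the annotation, the strand setting, and the handling of mouse reads and of reads with several placements are not stated in those notes or labels. Mouse reads may therefore stand in the counts.

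The members and lists were chosen with earlier results of these data known. Counts of 43 libraries were fitted by quasi-likelihood in edgeR 4.0.16 (R 4.3.3) after TMM scaling, with robust estimation, arm as the only term and Benjamini-Hochberg adjustment over all 13520 genes that filterByExpr kept, at 0.05. UGT2B7 was under that filter, so its test is from the fit with a minimum of 0.5 CPM, added after the data were seen. Levels are CPM relative to TMM-scaled totals. Relations used log2 CPM (prior count 2) and 100000 permutations within arms. Genes named besides the members are up to 4 per list with the smallest p, the 3 tested genes most like each member, and FOXA1 and androgen-induced genes; GUSB, PAPSS1, TMPRSS2 and the neighbours on the chromosome came in by list or position. Results for some other genes are not reported here. The neighbours were added after the data were seen. Sequences were read from GENCODE 29 transcripts and RefSeq promoters of another build than the counts, so no gene coordinates are set beside the counts.

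Alternatives were DESeq2-type size factors or library totals, other filters, DESeq2 1.42.0, limma 3.58.1, no robust estimation, only the compared arms, all 44 libraries, a replicate block, removal of trends with GC content and length (known for 88.9% of genes) and leaving out each library. No 2 columns were identical, and chi-square per degree of freedom, between any pair from the same arm, was at least 3.42. The fit was checked on simulated data.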

Additional observations from a re-analysis of the deposited data

How the results depend on the processing

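Of 791 values of members under other settings, 787 kept their call and 4 crossed the threshold, and 0 changed sign where either fit passed. A change of sign between values that did not pass was not counted. UGT2B17 under enzalutamide, for example, ran from -0.14 to 0.17. The count of members past the threshold, 2 for each drug against vehicle, became 4 for enzalutamide and 4 for ARN-509 with no filter on low counts, where UGT2B7 and UGT2B11 are tested too. It became 4 for ARN-509 by limma voom, where UGT2B15 and UGT2B17 passed as higher. That fit called 4899 of 13520 genes for ARN-509, 2560 of them higher, against 4166 called by edgeR. Leaving out each library in turn gave counts of 2 to 2 for enzalutamide, 2 to 3 for ARN-509 and 0 to 0 between the drugs. Over the leave-one-out fits and the other alternatives, UGT2B4 stayed between -1.29 and -1.05 for enzalutamide and between -1.42 and -1.21 for ARN-509. UGT2B10 stayed between -0.98 and -0.72, and between -0.95 and -0.65. The labels do not tie equal replicate numbers to a shared source, so the tumors were taken as unpaired. Of 41 same-number pairs, 13 had deviations correlated at r over 0.1 (-0.324 to 0.590). Pairs with different numbers were not set beside them, so the correlations cannot decide whether the numbers pair tumors. With the numbers as a replicate block UGT2B7 under enzalutamide was -1.08 (adjusted p = 0.0724), and the block changed no other call of a member, but ended those of ABCC4 and PAPSS2 for enzalutamide (adjusted p = 0.0609 and 0.0839); over all genes 1197 passed for enzalutamide against 1455 without it. Over all genes limma voom called 2547 for enzalutamide and 5707 between the drugs, against 1455 and 3623 by edgeR, and removal of the trend with GC content and length left 914 called between the drugs. Library totals moved the ARN-509 split to 2713 higher and 1466 lower, against 1988 and 2178 with TMM; no scaling moved a member's call, and the median of all genes for ARN-509 was 0.0537 with library totals against -0.0011 with TMM. Of 2688 values of 24 of the other genes named, ASRGL1 not among them, 2656 kept their call and 0 changed sign where either fit passed. Values that did not pass could change sign, as KLK3 under enzalutamide did (-0.36 to 0.07). UGT2B17 was near the count filter and was tested in 33 of the 43 leave-one-out fits. Depth limits UGT2B7, UGT2B11 and UGT2B28. The cause of these shifts was not tested.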
